A study of Mus musculus with 110 samples.

Results

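The mRNA of hepcidin (Hamp) and of 8 other iron handling genes, Bmp6, Id1, Smad7, Tfrc, Tfr2, Slc40a1, Fth1 and Slc39a14, was followed in liver, interscapular brown fat (iBAT), inguinal white fat (iWAT) and epididymal white fat (eWAT) of mice under dietary methionine restriction (MetR), cold exposure (CE) or both. The 9 genes were chosen by name, and each was found by its Ensembl identifier among the 56884 gene rows of the count tables. Hamp2, the second mouse hepcidin gene, was added because it is nearly identical to Hamp. In liver, methionine restriction and cold each went with more Bmp6, Tfrc and Slc40a1 mRNA. Hamp2, at low counts and with an uncertain split of reads from Hamp, was higher in all 3 treated groups. Fth1 was higher and Tfr2 lower on the MetR diet at both temperatures. Id1 was called higher in MetR_RT and just missed the call in MetR_CE, and either outcome changed when any of 7 of the 28 libraries was left out. Hamp itself did not pass the test against Ctrl_RT in any of the 3 other groups.

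Hepcidin is a peptide hormone made by hepatocytes that binds ferroportin (Slc40a1), the cellular iron exporter, and sends it to degradation, so that less iron enters the blood. Its transcription is driven by bone morphogenetic proteins from liver sinusoidal endothelium, above all BMP6 and BMP2, acting through SMAD proteins, and separately by interleukin-6 through STAT3. Iron inside cells is also sensed by iron regulatory proteins, which bind RNA hairpins called iron responsive elements and thereby block translation of ferritin and ferroportin mRNA and stabilise transferrin receptor mRNA.

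The mice were male wild-type C57BL/6N animals from Taconic, single-housed and 16 weeks old at the end. Every diet lacked cysteine: the control (Ctrl) diet held 0.86% methionine and the MetR diet 0.12% by the series' design text, although the study's methods give another figure for the control diet. Diets were fed for 7 days at 22 °C (RT) or with a further 24 h at 4 °C (CE). This gave Ctrl_RT, Ctrl_CE, MetR_RT and MetR_CE, with 7 separate mice per group and 28 in all, and the cold groups differ from the others in length of feeding as well. Of 110 libraries 105 were used: 7 per group, except 6 for iBAT Ctrl_RT, iBAT Ctrl_CE, iWAT MetR_CE and eWAT MetR_RT and 4 for eWAT Ctrl_RT.

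Liver libraries held 6987895 to 33444374 counts, those of iBAT 12672686 to 31232349, iWAT 16607493 to 33141066 and eWAT 22625093 to 33372110. For 3 iBAT libraries a treatment tag names another group than the title; they were placed by title, and values without them stand beside the iBAT results. The 5 unused libraries are those inferred to be the ones that the study left out (iBAT Ctrl_CE replicate 5, eWAT Ctrl_RT replicates 2, 4 and 5, and eWAT MetR_RT replicate 7), and values with them stand beside the eWAT results. Levels below are TMM-normalized CPM, which are counts scaled to a common library size, given as lowest, median and highest library. A gene is called where edgeR's quasi-likelihood test gives a Benjamini-Hochberg adjusted p below 0.05 over all genes and the change is at least 1.5-fold. Hepatocyte markers (Alb, Apoa1, Ttr, Serpina1a and Cyp2e1) summed to between 45390 and 85540 CPM in every liver library. The sum was 45390 to 55210 CPM in MetR_CE, below every Ctrl_RT library (55400 to 85540 CPM), with 1 of 5 markers called lower, and its part in the liver results was not tested.

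Hamp (chr7:30942368-30944032, minus strand, GRCm38) and Hamp2 (chr7:30922372-30924681, minus strand) lie close to each other. Their longest annotated protein-coding transcripts, of 410 and 437 bases, were identical at 388 of 410 aligned bases (94.6%). Of 380 stretches of 31 bases in Hamp, 128 (33.7%) also occur in Hamp2. Reads from such stretches cannot be placed by sequence alone in 1 of the genes, so the split of counts between them is an estimate and uncertain. The 250 bases upstream of both start sites are shown because control elements of hepcidin lie there (RefSeq, GRCm38.p6, chr7:30944030-30944279 for Hamp and chr7:30924182-30924431 for Hamp2, both minus strand). The Hamp2 window lies inside the gene span given above, because that span, from GENCODE, begins farther upstream than the RefSeq start site. Capitals mark GGCGCC, the core of a BMP responsive element, and TTCTTGGAA, a STAT3 element.
Hamp: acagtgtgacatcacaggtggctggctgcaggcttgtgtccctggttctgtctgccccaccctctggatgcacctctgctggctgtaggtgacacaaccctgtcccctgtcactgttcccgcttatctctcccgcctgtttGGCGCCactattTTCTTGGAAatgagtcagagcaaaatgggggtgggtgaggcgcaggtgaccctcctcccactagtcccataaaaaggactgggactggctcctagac
Hamp2: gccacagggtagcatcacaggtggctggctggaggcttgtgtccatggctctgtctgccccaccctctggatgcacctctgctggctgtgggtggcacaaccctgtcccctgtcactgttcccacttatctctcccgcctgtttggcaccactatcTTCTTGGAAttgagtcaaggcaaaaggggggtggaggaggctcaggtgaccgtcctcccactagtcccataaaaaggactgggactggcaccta
The windows were identical at 91.9% of aligned bases. GGCGCC started at position -109 in Hamp and these letters were not in the Hamp2 window, while TTCTTGGAA started at -97 in Hamp and at -94 in Hamp2, on the gene strand. Searched on both strands, GGCGCC occurred in 3146 of 32817 RefSeq windows of this length (9.59%) and TTCTTGGAA in 120 (0.366%). A match describes letters and does not show binding.

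Liver Hamp varied widely between mice of the same group. It ran from 252.2 CPM through a median of 564.6 to 896.5 CPM in Ctrl_RT, and from 147 through 442 to 646 CPM in Ctrl_CE. In MetR_RT it ran from 336 through 757 to 934 CPM, and in MetR_CE from 377 through 723 to 942 CPM. All 4 ranges overlapped. The log2 fold change against Ctrl_RT was -0.41 (SE 0.26, adjusted p = 0.2585) in Ctrl_CE, 0.19 (SE 0.26, adjusted p = 0.6859) in MetR_RT and 0.38 (SE 0.26, adjusted p = 0.3057) in MetR_CE. The 95% intervals, 0.524- to 1.07-fold for Ctrl_CE, 0.799- to 1.63-fold for MetR_RT and 0.909- to 1.86-fold for MetR_CE, leave room for changes in either direction.

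Within the cold groups, Hamp was 1.73-fold higher in MetR_CE than in Ctrl_CE (log2 0.79, SE 0.26, adjusted p = 0.0462, 95% interval 1.21 to 2.48). The call was lost when any of 19 of the 28 libraries was left out, with adjusted p between 0.02155 and 0.09326, and with DESeq2 size factors (log2 0.78, adjusted p = 0.0506). Its interaction of diet and temperature was 0.60 (SE 0.37, adjusted p = 0.4517). Counts of Hamp and Hamp2 added together gave 0.79 for MetR_CE against Ctrl_CE (adjusted p = 0.0433) and -0.40, 0.22 and 0.39 for the 3 comparisons with Ctrl_RT, which none passed.

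Hamp2 was called in all 3 comparisons with Ctrl_RT, at far lower counts than Hamp. Its Ctrl_RT libraries held 13 to 74 counts, beside 3906 to 13013 for Hamp. The Hamp2 values rest on the estimated split of reads that fit both genes, and the part of that split was not tested. Hamp2 ran from 0.896 through 2.45 to 5.82 CPM in Ctrl_RT and from 9.07 through 14.2 to 18.6 CPM in MetR_RT. Every MetR_RT mouse thus lay above every Ctrl_RT mouse. Ctrl_CE ran from 2.52 through 5.54 to 10.97 CPM and MetR_CE from 5.09 through 7.33 to 10.7 CPM, and both overlapped Ctrl_RT. Hamp2 rose 5.09-fold in MetR_RT (log2 2.35, SE 0.30, adjusted p = 9.97e-07), 2.17-fold in Ctrl_CE (adjusted p = 0.00556) and 2.88-fold in MetR_CE (adjusted p = 0.000195). It was lower in MetR_CE than in MetR_RT (log2 -0.82, SE 0.27, adjusted p = 0.0295, a call lost without any of 8 of the 28 libraries), and the interaction was -1.94 (SE 0.40, adjusted p = 0.0113).

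**Figure D1:**
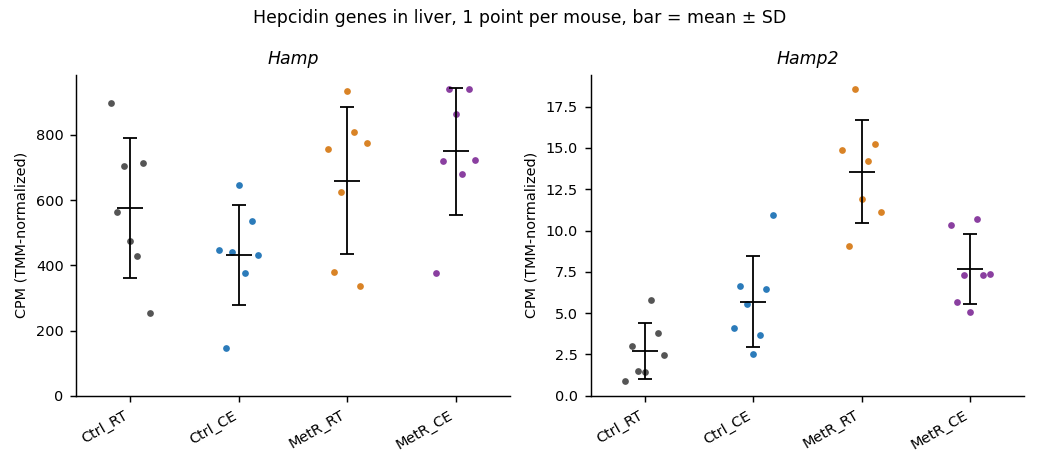
Normalized CPM of Hamp (left) and Hamp2 (right) in liver by group, on axes of different scale that start at 0. Each point is 1 mouse (n = 7 per group) and the bars give the mean ± SD. The Hamp groups overlap, whereas every MetR_RT point of Hamp2 lies above every Ctrl_RT point.

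Bmp6 (chr13:38345107-38500302, plus strand), the endothelial ligand that raises hepcidin transcription, ran in Ctrl_RT liver from 3.38 through 3.82 to 5.66 CPM. It ran from 5.53 through 8.11 to 11.1 CPM in Ctrl_CE, from 5.06 through 8.29 to 10.7 CPM in MetR_RT and from 9.45 through 13.2 to 15.4 CPM in MetR_CE. Every MetR_CE mouse lay above every Ctrl_RT mouse, and the single treatments overlapped Ctrl_RT at the edges. Bmp6 rose in Ctrl_CE (log2 0.97, SE 0.17, adjusted p = 6.35e-05), 1.89-fold in MetR_RT (log2 0.92, SE 0.17, adjusted p = 0.00022) and 2.94-fold in MetR_CE (log2 1.56, SE 0.17, adjusted p = 2.57e-08). It was also higher in MetR_CE than in MetR_RT (log2 0.64, adjusted p = 0.00442) and than in Ctrl_CE (log2 0.59, adjusted p = 0.0126). That last value is just over the 1.5-fold line, and leaving out any of 21 of the 28 libraries put it under. The interaction was -0.33 (SE 0.23, adjusted p = 0.5193), with a 95% interval from -0.79 to 0.12.

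Endothelial marker mRNA was also higher in the cold groups. The summed level of 5 sinusoidal endothelial markers (Stab1, Stab2, Clec4g, Oit3 and Lyve1) ran from 132 through 144 to 184 CPM in Ctrl_RT, from 194.5 through 288.5 to 317.7 CPM in Ctrl_CE, from 165 through 180 to 210 CPM in MetR_RT and from 266.6 through 276.8 to 306.3 CPM in MetR_CE. All 5 markers were called higher in Ctrl_CE and in MetR_CE, and 1 of 5 in MetR_RT. Bmp2, the other endothelial ligand, rose with cold (log2 1.11, SE 0.15, in Ctrl_CE and 1.36, SE 0.16, in MetR_CE), and ran from 8.46 through 12.4 to 18.9 CPM in Ctrl_RT and from 14.1 through 19.7 to 23.8 CPM in MetR_RT, where it was not called. In bulk tissue more cells of a type and more RNA per cell cannot be told apart, and the part of endothelial cells in the Bmp6 result was not tested.

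**Figure D2:**
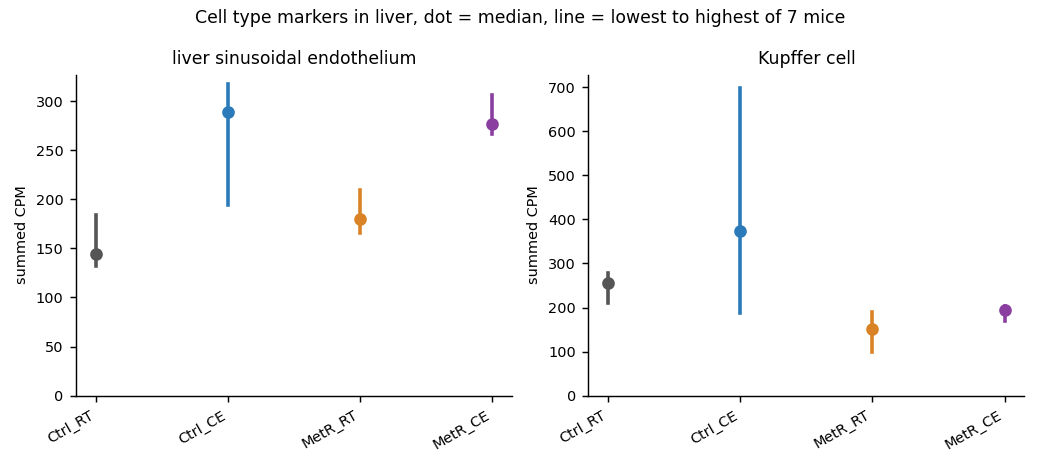
Summed normalized CPM of 5 sinusoidal endothelial markers (left) and 5 Kupffer cell markers (right) in liver by group, from 0. The dot is the median and the line runs from the lowest to the highest of 7 mice. The endothelial sum is higher in both cold groups, whereas the Kupffer sum is lower in MetR_RT and spreads from 188 to 699 CPM in Ctrl_CE.

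Smad7 (chr18:75367529-75395935, plus strand) encodes the inhibitory SMAD that BMP signalling induces and that damps hepcidin transcription. Its liver level ran from 11.1 through 13.4 to 17.5 CPM in Ctrl_RT, from 5.31 through 14.8 to 26.9 CPM in Ctrl_CE, from 13.01 through 19 to 23.97 CPM in MetR_RT and from 10.4 through 19.6 to 32.6 CPM in MetR_CE. The 4 ranges overlapped and no comparison passed with all libraries. The log2 fold change against Ctrl_RT was 0.05 (SE 0.24) in Ctrl_CE, 0.34 (SE 0.24) in MetR_RT and 0.51 (SE 0.24, adjusted p = 0.1043) in MetR_CE. With each of the 28 libraries left out in turn, the last ran from 0.36 to 0.63, with adjusted p between 0.0395 and 0.2823. It passed in only 1 of these runs, the one without MetR_CE replicate 6.

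Id1 (chr2:152736251-152737410, plus strand) encodes an inhibitor of basic helix-loop-helix transcription factors and is a direct target of BMP-SMAD signalling. In liver it ran from 7.17 through 8.37 to 12.74 CPM in Ctrl_RT and from 12.76 through 17.1 to 23.8 CPM in MetR_RT, so the ranges nearly touched without overlap. Id1 rose 1.95-fold in MetR_RT (log2 0.96, SE 0.32, adjusted p = 0.033), a call that was lost when any of 7 of the 28 libraries was left out. In MetR_CE it ran from 8.14 through 15.3 to 26.9 CPM and did not pass (log2 0.83, SE 0.32, adjusted p = 0.0513), but it passed when any of 7 of the 28 libraries was left out. In Ctrl_CE it ran from 4.44 through 8.64 to 35.1 CPM (log2 0.48, SE 0.32, adjusted p = 0.2913), and the highest value was a single library, replicate 6, with the next at 13.6 CPM. Without it, Id1 was higher in MetR_CE than in Ctrl_CE by 0.87 (adjusted p = 0.0207), a comparison that did not pass with it.

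The iron responsive elements of 3 members are shown because the side of the reading frame on which they lie sets how iron regulatory proteins act on each mRNA. The search required the loop letters CAGTG followed by A, C or T, shown in capitals, within 27 bases. It also required a C between the lower and the upper stem on the 5′ side. At least 5 positions had to pair in the upper stem and 3 in the lower stem, G-T pairs included. The hairpins have these names and sequences, read from GENCODE M21 transcripts on GRCm38. The exon number is that in 1 transcript, which for Fth1 is Fth1-203 of the 4 that hold the site, and can differ in others.
Fth1, 5′ UTR, exon 2, chr19:9982733-9982759, plus strand: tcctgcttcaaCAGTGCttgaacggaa
Slc40a1, 5′ UTR, exon 1, chr1:45925466-45925492, minus strand: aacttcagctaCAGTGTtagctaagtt
Tfrc, 3′ UTR, exon 19, chr16:32631220-32631246, plus strand: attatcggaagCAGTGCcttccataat
Tfrc, 3′ UTR, exon 19, chr16:32631599-32631625, plus strand: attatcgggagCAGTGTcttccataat
Tfrc, 3′ UTR, exon 19, chr16:32631664-32631690, plus strand: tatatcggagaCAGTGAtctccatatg
Tfrc, 3′ UTR, exon 19, chr16:32631711-32631737, plus strand: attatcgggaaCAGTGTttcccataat
Such a match occurred in 115 of 58797 protein-coding transcripts (0.196%), and in 3 of the 10 genes searched (the members and Hamp2). A 5′ element acts on translation, which these counts do not measure, whereas 3′ elements act on the amount of Tfrc mRNA itself.

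Tfrc (chr16:32608920-32632794, plus strand), the transferrin receptor through which cells take up transferrin-bound iron, showed the largest fold of the 9 genes in MetR_CE liver. It ran from 11.5 through 23.3 to 31.1 CPM in Ctrl_RT, from 24.0 through 37.8 to 53.2 CPM in Ctrl_CE, from 26.1 through 34.6 to 66 CPM in MetR_RT and from 54.5 through 69.3 to 98.8 CPM in MetR_CE. Both single treatments lay between Ctrl_RT and MetR_CE, and every MetR_CE mouse lay above every Ctrl_RT and every Ctrl_CE mouse. Tfrc rose 1.89-fold in Ctrl_CE (log2 0.92, SE 0.21, adjusted p = 0.00149), 1.97-fold in MetR_RT (log2 0.98, SE 0.21, adjusted p = 0.00133) and 3.65-fold in MetR_CE (log2 1.87, SE 0.22, adjusted p = 7.46e-08). MetR_CE also exceeded MetR_RT (log2 0.89, adjusted p = 0.00247) and Ctrl_CE (log2 0.95, adjusted p = 0.00234). The interaction was -0.03 (SE 0.30, adjusted p = 0.9809), with a 95% interval from -0.61 to 0.55.

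Tfr2 (chr5:137569840-137587481, plus strand), the hepatocyte receptor that senses transferrin-bound iron and feeds into hepcidin control, went the other way. It ran from 687 through 723 to 885 CPM in Ctrl_RT, from 575 through 636 to 834 CPM in Ctrl_CE, from 411 through 525 to 531 CPM in MetR_RT and from 419 through 467 to 527 CPM in MetR_CE. All mice on the MetR diet lay below all mice on the control diet at either temperature. Tfr2 fell by 0.59 on the log2 scale in MetR_RT (SE 0.08, adjusted p = 2.74e-06), which is 1.51-fold and fell under 1.5-fold without any of 3 of the 28 libraries, and by 0.72 in MetR_CE (SE 0.08, adjusted p = 4.1e-08). The log2 difference was -0.22 in Ctrl_CE (adjusted p = 0.0373) and -0.50 in MetR_CE against Ctrl_CE (adjusted p = 9.09e-05), both under 1.5-fold.

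Slc40a1 (chr1:45908068-45926523, minus strand), the iron exporter that hepcidin acts on, ran in liver from 78.9 through 95.5 to 140.9 CPM in Ctrl_RT, from 120.1 through 166 to 221 CPM in Ctrl_CE, from 140 through 186 to 219 CPM in MetR_RT and from 160.4 through 175 to 228 CPM in MetR_CE. The 3 treated groups had much the same level. Slc40a1 rose 1.60-fold in Ctrl_CE (log2 0.68, SE 0.13, adjusted p = 0.000165), 1.904-fold in MetR_RT (log2 0.93, SE 0.13, adjusted p = 5.12e-06) and 1.84-fold in MetR_CE (log2 0.88, SE 0.13, adjusted p = 3.54e-06). The sum of both single effects exceeded the joint one: the interaction was -0.73 (SE 0.18, adjusted p = 0.0366). That call was lost when any of 14 of the 28 libraries was left out (adjusted p up to 0.0645). Slc40a1 is expressed by Kupffer cells too, and the summed level of 5 Kupffer cell markers ran from 210.3 through 256.7 to 278.4 CPM in Ctrl_RT, from 188 through 374 to 699 CPM in Ctrl_CE, from 98.8 through 152 to 190 CPM in MetR_RT and from 170 through 195 to 204 CPM in MetR_CE. Of these markers 4 were called higher in Ctrl_CE and 3 lower in MetR_RT, while Slc40a1 was higher in both groups, and the part of Kupffer cells in the result was not tested.

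Fth1 (chr19:9980598-9985098, plus strand) encodes the ferritin heavy chain, the ferroxidase subunit of the iron store. It ran from 1193 through 1244 to 1494 CPM in Ctrl_RT, from 1357 through 1436 to 1660 CPM in Ctrl_CE, from 2030 through 2086 to 2517 CPM in MetR_RT and from 2099 through 2348 to 2487 CPM in MetR_CE. As with Tfr2, diet split the mice without overlap at either temperature, here with the MetR groups above. Fth1 rose 1.70-fold in MetR_RT (log2 0.76, SE 0.07, adjusted p = 4.4e-09), 1.78-fold in MetR_CE (log2 0.83, SE 0.07, adjusted p = 3.4e-10) and 1.55-fold in MetR_CE over Ctrl_CE (log2 0.63, SE 0.07, adjusted p = 7.12e-07). The value in Ctrl_CE was 0.20 (SE 0.07, adjusted p = 0.0335) and under 1.5-fold. Processed pseudogene copies of Fth1 may share its reads, so the absolute level is uncertain. Ftl1, the ferritin light chain, rose in MetR_RT (log2 0.69, SE 0.10), from 1549 to 2435 CPM in Ctrl_RT to between 2493 and 3521 CPM, and was not called in MetR_CE, at 1962 to 2473 CPM.

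Slc39a14 (chr14:70303469-70351425, minus strand) encodes ZIP14, which imports iron that is not bound to transferrin and is known to be induced by interleukin-6. It ran from 238.7 to 492.7 CPM in Ctrl_RT (mean 307.4 ± 85.95, SD, n = 7), from 215.6 through 248.4 to 572.3 CPM in Ctrl_CE, from 189 through 208 to 220.3 CPM in MetR_RT and from 242.1 through 295.3 to 321.3 CPM in MetR_CE. Every MetR_RT mouse lay below every Ctrl_RT and every MetR_CE mouse, yet no comparison reached 1.5-fold. The log2 difference was -0.57 (SE 0.16, adjusted p = 0.0126) in MetR_RT and 0.49 (SE 0.16, adjusted p = 0.033) in MetR_CE over MetR_RT. Single libraries stood far above the rest in Ctrl_RT (replicate 5) and in Ctrl_CE (replicate 4). The latter mouse, singled out after the values were seen, was also the highest of the 7 Ctrl_CE livers for Hamp (646 CPM), Tfr2 (834 CPM), Saa1 (10990 CPM), Lcn2 (1296 CPM), Hp (15650 CPM) and Socs3 (70.7 CPM), and the lowest for Smad7 (5.31 CPM). Without it the Slc39a14 interaction was 0.85 (adjusted p = 0.00199) and passed, against 0.59 (SE 0.23, adjusted p = 0.19) with it.

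**Figure D3:**
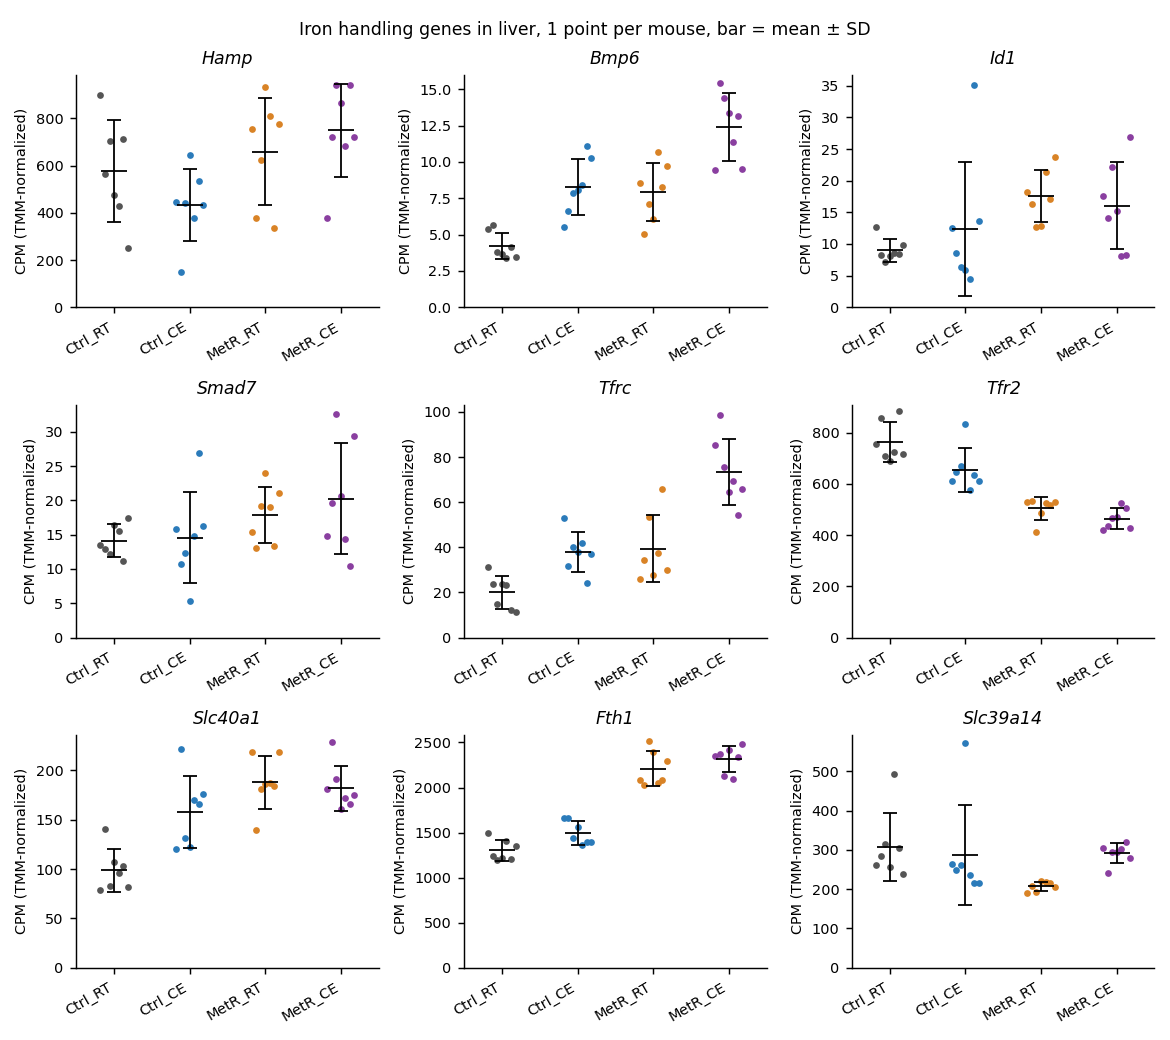
Normalized CPM of the 9 genes in liver by group, each panel with its own axis from 0. Each point is 1 mouse (n = 7 per group) and the bars give the mean ± SD. Bmp6 and Tfrc are highest in MetR_CE, Tfr2 and Fth1 split by diet in opposite directions, and Hamp and Smad7 overlap in all groups.

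Counted together, 3 of the 9 genes were called higher and 0 lower in Ctrl_CE, where 11.9% of all genes tested were called (7.28% higher, 4.64% lower). In MetR_RT 5 were called higher and 1 lower, with 6.91% of all genes called (2.88% higher, 4.02% lower). In MetR_CE 4 were called higher and 1 lower, with 13.5% called (6.25% higher, 7.22% lower). These 3 comparisons share the Ctrl_RT mice, and the genes were chosen for their biology with earlier results known, so the counts describe them only. The median log2 fold change of the 9 genes was 0.198 in Ctrl_CE, 0.762 in MetR_RT and 0.828 in MetR_CE, beside -0.0108, 0.00451 and -0.0439 for all genes. In MetR_CE against MetR_RT 2 were called higher and 0 lower (5.18% of all genes called, 2.75% higher and 2.44% lower), in MetR_CE against Ctrl_CE 4 and 0 (5.26%, 1.17% higher and 4.1% lower), and the interaction was called for 1, Slc40a1 (1.06%, 0.375% higher and 0.682% lower).

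Among other genes of the BMP-SMAD arm of hepcidin control, calls went in both directions. This list does not count Bmp6, Id1 or Smad7. Of those, Bmp6 was called higher in all 3 comparisons and Id1 in MetR_RT, as given above. Of 18 genes tested, 3 were called higher and 0 lower in Ctrl_CE. The counts were 0 higher and 1 lower in MetR_RT and 2 higher and 4 lower in MetR_CE, with medians over the 3 comparisons of 0.0619, 0.0748 and 0.131. Over all liver genes 11.9%, 6.91% and 13.5% were called. Besides Bmp2, Smad6, a second inhibitory SMAD, rose in Ctrl_CE (log2 0.73, SE 0.14) and in MetR_CE (0.67, SE 0.14). Fst, which encodes the activin and BMP binding protein follistatin, rose in Ctrl_CE (0.83, SE 0.26) and fell in MetR_CE (-0.81, SE 0.28). Id2 and Id3, relatives of Id1, fell in MetR_CE (-0.61, SE 0.13, and -0.78, SE 0.23). Fgl1, a secreted hepatocyte protein, fell in MetR_RT (-2.19, SE 0.36) and in MetR_CE (-2.77, SE 0.36).

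Genes of the interleukin-6 and STAT3 arm were called lower under methionine restriction in 5 of 10 cases. Of the 10 genes, 0 were called higher and 1 lower in Ctrl_CE, and 0 higher and 5 lower both in MetR_RT and in MetR_CE, with medians of -0.341, -0.532 and -0.499. Over all liver genes 4.64%, 4.02% and 7.22% were called lower. Saa1, an acute-phase protein, ran from 1759 through 2000 to 8424 CPM in Ctrl_RT and from 9.08 through 14.1 to 384.5 CPM in MetR_RT. In MetR_CE it ran from 1.54 through 7.38 to 13.01 CPM, and in Ctrl_CE from 10.2 through 1123 to 10990 CPM. Saa1 fell by 5.78 on the log2 scale in MetR_RT (SE 1.02) and by 9.06 in MetR_CE (SE 1.20). Saa2, Fga, Socs3 and Stat3 fell in both as well, Stat3 itself by 0.81 (SE 0.17) and 0.70 (SE 0.17). Saa1 and Saa2 are close paralogs, so the split of reads between them is uncertain. Hamp, whose upstream window holds a STAT3 element, did not pass in MetR_RT, with an interval down to 0.799-fold. Whether the lower acute-phase level bears on Hamp was not tested.

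Several genes for plasma iron and haem carriers fell. The list for iron uptake and transferrin holds 9 other genes and does not count Tfrc, Tfr2 or Slc39a14. In it 1 gene was called higher and 3 lower in Ctrl_CE, and 0 higher and 5 lower in MetR_RT and in MetR_CE (medians -0.0561, -0.684 and -0.812). In MetR_CE the hepatocyte marker sum was lower too, as given above. Transferrin (Tf), the iron carrier of plasma, ran from 17200 to 26900 CPM in Ctrl_RT and from 11620 to 15750 CPM in MetR_RT, and fell by 0.68 there (SE 0.14) and by 0.81 in MetR_CE (SE 0.14). Haptoglobin (Hp) and haemopexin (Hpx), which carry haemoglobin and haem, fell in all 3 comparisons: Hp by 0.91 (SE 0.30), 1.98 (SE 0.31) and 2.61 (SE 0.32), and Hpx by 0.80 (SE 0.27), 1.51 (SE 0.27) and 2.00 (SE 0.27). Lcn2, which binds iron-loaded siderophores, fell by 4.51 in MetR_RT (SE 0.86) and by 6.80 in MetR_CE (SE 0.98). Hp, Hpx and Lcn2 are also acute-phase genes, like Saa1 above, and whether their fall is separate from that of Saa1 was not tested. The haemoglobin scavenger receptor Cd163, a Kupffer cell gene, rose in Ctrl_CE (1.28, SE 0.24), where 4 of 5 Kupffer cell markers were also higher.

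Haem and mitochondrial lists differed in their number of calls in liver. In the haem breakdown list 2, 3 and 2 of 7 genes were called higher in Ctrl_CE, MetR_RT and MetR_CE and 0 lower (medians 0.102, 0.27 and 0.214), beside 7.28%, 2.88% and 6.25% of all genes called higher. Among them were Bach1, the haem-sensing repressor (0.73, 0.65 and 0.76, SE 0.13 each), and the haem transporter Slc48a1 (0.89 in MetR_RT and 0.79 in MetR_CE, SE 0.07 each). Hmox1, haem oxygenase, rose in Ctrl_CE (1.05, SE 0.22). In the export list of 4 genes the ferroxidase Cp fell in MetR_RT (-0.62, SE 0.15) and in MetR_CE (-0.69, SE 0.15), and Heph rose in Ctrl_CE (0.73, SE 0.20). Of 8 haem synthesis genes 0 were called in the 3 comparisons, of 15 genes for mitochondrial iron and Fe-S assembly 1 (Slc25a37, mitoferrin 1, 0.67, SE 0.07, in MetR_RT), and of 7 genes for iron regulatory proteins and ferritin storage 1, Ftl1. The export list does not count Slc40a1 and the storage list does not count Fth1, both called higher as given above.

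Hamp was compared with the other 8 genes across the 28 liver libraries, on log2 values centred on the group means and with 100000 permutations. The highest value was for Bmp6 (Pearson's r = 0.478, permutation p = 0.0174, adjusted over 8 relations 0.139; Spearman's rho = 0.46, permutation p = 0.0203, adjusted 0.162). Without the 2 libraries farthest from the median it was 0.43. Without centring it was 0.362 (permutation p = 0.0579, adjusted 0.294), with rho 0.429 (permutation p = 0.0235, adjusted 0.113). None of the 8 relations passed after adjustment. Over 12513 genes with a mean of at least 1 CPM, those most like Hamp in uncentred log2 CPM over the same 28 libraries were the gene ENSMUSG00000121489.1, which has no symbol here (r = 0.675), Anapc7 (0.659), Mcee (0.639), Sgta (0.635) and Eif4h (0.634), and those least like it Tmem159 (-0.684), Sh3bgrl (-0.655), Ppm1h (-0.644), Abca9 (-0.637) and Nde1 (-0.633).

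The levels differed between tissues in a gene-specific way. On a common scale over all tissues, the Ctrl_RT median of Hamp was 699 CPM in liver and at most 0.0434 CPM in the 3 fat depots. Tfr2 had medians of 923 CPM in liver and of 9.62, 3.46 and 0.705 CPM in iBAT, iWAT and eWAT. Slc40a1 had 118 CPM in liver and 18.2, 12.9 and 8.77 in iBAT, iWAT and eWAT, and Slc39a14 had 352 CPM in liver and 35.1, 25.7 and 15.5. Bmp6 was the reverse, with 4.75 CPM in liver and 48.9, 23.4 and 47.6 in iBAT, iWAT and eWAT, and Id1 had 10.4 CPM in liver and 44.3, 25.3 and 33.7 in fat. Tfrc had 28.7, 35.3, 24.2 and 25.4 CPM in liver, iBAT, iWAT and eWAT, and Smad7 16.8, 19.2, 10.5 and 21.5 CPM. Fth1 had 1574, 2046, 1346 and 1341 CPM.

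Hamp in fat was at the edge of detection. In iBAT the Hamp counts summed to 13 over 6 Ctrl_RT libraries and to 1, 1 and 2 over the libraries of Ctrl_CE, MetR_RT and MetR_CE. The hepatocyte marker sum moved with it, from 45.8 to 130 CPM in Ctrl_RT iBAT to between 3.05 and 47.5 CPM in Ctrl_CE, and its part was not tested. In iWAT the counts summed to 4, 9, 4 and 3 over Ctrl_RT, Ctrl_CE, MetR_RT and MetR_CE. In eWAT they summed to 0, 89, 14 and 173, with up to 2.54 CPM in 1 MetR_CE library and 0 CPM in another. Too few reads were there for a fold change to be given. The median hepatocyte marker sum in iWAT was 1175 CPM in Ctrl_RT and 449.8 CPM in Ctrl_CE, where Hamp had 4 and 9 counts. In eWAT the sum ran from 3362 to 6705 CPM in Ctrl_RT, where Hamp had 0 counts. It ran from 498.4 to 1206 CPM in eWAT MetR_CE, where Hamp had 173 counts. The sum includes Cyp2e1, which the study names among the genes repressed by MetR_CE in eWAT. In fat it therefore need not measure hepatocyte RNA. The part of the marker sum was not tested in these depots either.

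In iBAT the 2 genes called higher were Smad7 and Tfrc, both in the cold groups. Smad7 ran from 12.9 through 17.2 to 24.1 CPM in Ctrl_RT and from 13.8 through 16.2 to 23.3 CPM in MetR_RT, against 28.7 through 33.6 to 38.6 CPM in Ctrl_CE and 26.7 through 32.8 to 36.6 CPM in MetR_CE. All cold mice lay above all mice at 22 °C. Smad7 rose by 0.88 on the log2 scale in Ctrl_CE (SE 0.13, adjusted p = 2.09e-06), by 0.83 in MetR_CE (SE 0.12, adjusted p = 3.89e-06) and by 0.94 in MetR_CE over MetR_RT (SE 0.12, adjusted p = 5.84e-07). Tfrc ran from 17.1 through 31.8 to 46.9 CPM in Ctrl_RT, from 46.7 through 58.0 to 86.9 CPM in Ctrl_CE, from 22.7 through 26.4 to 40.1 CPM in MetR_RT and from 57.1 through 69.6 to 92.8 CPM in MetR_CE. Only at the edge between 1 Ctrl_RT and 1 Ctrl_CE mouse did cold and room temperature overlap. Tfrc rose by 0.95 in Ctrl_CE (SE 0.19, adjusted p = 0.000227), by 1.21 in MetR_CE (SE 0.19, adjusted p = 7.05e-06) and by 1.34 in MetR_CE over MetR_RT (SE 0.18, adjusted p = 1.47e-06).

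Slc40a1 in iBAT ran from 11.5 through 16.2 to 24.4 CPM in Ctrl_RT and from 6.75 through 9.90 to 11.9 CPM in MetR_CE, with an overlap at the edge, and fell by 0.76 on the log2 scale (SE 0.16, adjusted p = 0.000368), opposite to its rise in liver. Without the 3 libraries whose tag differs, the iBAT values were 0.84, 0.82 and 0.92 for Smad7, 0.93, 1.17 and 1.25 for Tfrc and -0.77 for Slc40a1, with every call kept. Macrophage markers, which include cells that express Slc40a1, summed to between 62.5 and 107.6 CPM in Ctrl_RT iBAT and 26.1 to 42.7 CPM in MetR_CE, with 4 of 5 called lower, and their part was not tested. In iBAT 2 of the 9 genes were called higher and 1 lower in Ctrl_CE (14.7% of all genes called, 4.97% higher and 9.72% lower) and again in MetR_CE (14.7%, 4.36% higher and 10.3% lower), and 0 in MetR_RT (2.5%, 0.535% higher and 1.97% lower). The lower call in Ctrl_CE is that of Hamp on the 13 counts above. Against MetR_RT, MetR_CE had 2 higher calls (8.53%, 3.41% higher and 5.13% lower), and against Ctrl_CE it had 0 (1.64%, 0.481% higher and 1.16% lower), as did the interaction (0.372%, 0.247% higher and 0.125% lower).

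Of 7 haem breakdown and transport genes in iBAT, 2, 1 and 2 were called higher and 1, 0 and 1 lower in Ctrl_CE, MetR_RT and MetR_CE, where 14.7%, 2.5% and 14.7% of all genes were called. Of 8 haem synthesis genes 0 were called. Hmox1 rose in Ctrl_CE (1.14, SE 0.19), MetR_RT (0.88, SE 0.19) and MetR_CE (1.48, SE 0.19), and Hmox2 in both cold groups (0.80 and 0.76, SE 0.06 each), while biliverdin reductase B (Blvrb) fell there (-0.73, SE 0.09, and -0.95, SE 0.08). In the export list Flvcr1, a haem and choline transporter, fell in all 3 (-0.73, -0.60 and -0.62, SE 0.14, 0.13 and 0.13). The BMP-SMAD list does not count Smad7, which was called higher in both cold groups. Of its 19 genes, 0 were called higher in the 3 comparisons, and 5, 1 and 5 were called lower in Ctrl_CE, MetR_RT and MetR_CE, beside 9.72%, 1.97% and 10.3% of all genes. Among them were Tmprss6, a protease that cleaves the BMP coreceptor hemojuvelin (-1.71 and -1.74, SE 0.28 each), and Id2 (-1.19, SE 0.25, and -1.47, SE 0.24).

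In iWAT Smad7 and Tfrc also rose, here under methionine restriction as well for Tfrc. Tfrc ran from 22.4 through 27.8 to 43.7 CPM in Ctrl_RT, from 30.4 through 67.5 to 101.5 CPM in Ctrl_CE, from 28.4 through 48.6 to 74.5 CPM in MetR_RT and from 39.8 through 56.1 to 89.4 CPM in MetR_CE. All ranges overlapped that of Ctrl_RT. Tfrc rose by 1.10 on the log2 scale in Ctrl_CE (SE 0.23, adjusted p = 0.000636), by 0.74 in MetR_RT (SE 0.23, adjusted p = 0.0196, lost without MetR_RT replicate 4 or 6) and by 0.92 in MetR_CE (SE 0.24, adjusted p = 0.00285). Smad7 ran from 9.51 through 12.03 to 26.6 CPM in Ctrl_RT, from 14.6 through 22.4 to 35.9 CPM in Ctrl_CE and from 25.1 through 32.8 to 39.8 CPM in MetR_CE. One Ctrl_RT mouse stood well above the other Ctrl_RT mice. Smad7 rose by 0.73 in Ctrl_CE (SE 0.19, adjusted p = 0.00472) and by 1.16 in MetR_CE (SE 0.20, adjusted p = 4.02e-05), and MetR_CE exceeded MetR_RT by 0.80 (SE 0.20, adjusted p = 0.0185), without overlap.

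Slc39a14 fell in iWAT in every comparison with Ctrl_RT. It ran from 22.0 through 29.5 to 47.4 CPM in Ctrl_RT, from 16.1 through 16.5 to 39.1 CPM in Ctrl_CE, from 13.9 through 16.4 to 20.9 CPM in MetR_RT and from 14.4 through 16.7 to 25.7 CPM in MetR_CE. The MetR_RT mice lay below all Ctrl_RT mice. The log2 change was -0.64 in Ctrl_CE (SE 0.19, adjusted p = 0.0104, lost without Ctrl_RT replicate 7), -0.91 in MetR_RT (SE 0.19, adjusted p = 0.000865) and -0.76 in MetR_CE (SE 0.20, adjusted p = 0.00291). Tfr2, near the low end in iWAT at 1.68 through 4.03 to 5.05 CPM in Ctrl_RT, rose by 1.07 in MetR_RT (SE 0.30, adjusted p = 0.0103), to between 4.00 and 11.3 CPM, and was lower by 1.07 in MetR_CE than in MetR_RT (adjusted p = 0.0438), a call lost when any of 16 of the 27 libraries was left out. Id1 rose in MetR_CE by 0.71 (SE 0.15, adjusted p = 0.000559), and Bmp6 was 1.52-fold higher in MetR_CE than in Ctrl_CE (adjusted p = 0.019, lost without any of 4 of the 27 libraries), without overlap.

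Of the 9 genes in iWAT, 2 were called higher and 1 lower in Ctrl_CE (15.9% of all genes called, 5.99% higher and 9.94% lower), 2 and 1 in MetR_RT (11.6%, 4.25% higher and 7.36% lower) and 3 and 1 in MetR_CE (22.4%, 8.05% higher and 14.4% lower). Against MetR_RT, MetR_CE had 1 higher and 1 lower call (1.88%, 0.602% higher and 1.28% lower), and against Ctrl_CE 1 higher (2.27%, 0.715% higher and 1.55% lower), with 0 for the interaction (1.65%, 0.511% higher and 1.14% lower). Cell markers moved with these groups: brown adipocyte markers summed to between 86.7 and 867 CPM in Ctrl_RT iWAT and to between 3201 and 7620 CPM in MetR_CE, and macrophage markers to between 1241 and 1971 CPM in Ctrl_RT and 169 to 423 CPM in MetR_CE. All 5 brown adipocyte markers were called higher and all 5 macrophage markers lower in each of the 3 comparisons, and their part in the iron gene results was not tested. In the mitochondrial iron and Fe-S list 5, 3 and 6 of 15 genes were called higher in Ctrl_CE, MetR_RT and MetR_CE and 0, 0 and 1 lower, beside 5.99%, 4.25% and 8.05% of all genes called higher. The medians were 0.498, 0.394 and 0.539, beside -0.112, -0.0311 and -0.0774 for all genes. They included the assembly factors Isca1 (0.78, SE 0.14, in Ctrl_CE and 0.64, SE 0.13, in MetR_RT) and Bola3 (0.78, SE 0.15, and 0.87, SE 0.15).

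In eWAT Tfrc responded to cold on the control diet. Its level was 29.2, 38.4, 37.6 and 28.4 CPM in the 4 Ctrl_RT mice. It ran from 33.3 through 73.3 to 99.7 CPM in Ctrl_CE, from 16.1 through 36.8 to 60.9 CPM in MetR_RT and from 19.2 through 26.03 to 37.4 CPM in MetR_CE. All but 1 of the Ctrl_CE mice lay above every Ctrl_RT and every MetR_CE mouse. Tfrc rose 2.15-fold in Ctrl_CE (log2 1.11, SE 0.31, adjusted p = 0.0383), and MetR_CE was 2.74-fold lower than Ctrl_CE (log2 -1.45, SE 0.26, adjusted p = 0.000893). The interaction was -1.58 (SE 0.40, adjusted p = 0.0329), and with all deposited libraries it was -1.34 (adjusted p = 0.1038) and no longer passed. Leaving out any of 10 of the 24 libraries also ended that call, and any of 8 ended the one in Ctrl_CE.

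Bmp6 in eWAT was at 89.9, 58.6, 44.03 and 64.9 CPM in the 4 Ctrl_RT mice. It ran from 35 through 40.1 to 49.3 CPM in Ctrl_CE and from 50.2 through 58.7 to 82.03 CPM in MetR_CE. Only 1 of the 4 Ctrl_RT mice lay within the range of Ctrl_CE. Bmp6 fell by 0.64 on the log2 scale in Ctrl_CE (SE 0.15, adjusted p = 0.0172), opposite to its rise in liver, but with all deposited libraries the value was -0.37 (adjusted p = 0.138), and without Ctrl_RT replicate 1 it was -0.43 (adjusted p = 0.1351). MetR_CE lay above Ctrl_CE in every mouse, by 0.62 (SE 0.13, adjusted p = 0.00381), and by 0.63 with all libraries. It fell under 1.5-fold without any of 4 of the 24 libraries (down to 0.54). Slc40a1 was higher in MetR_CE, at 11.5 through 18.7 to 25.1 CPM, than in Ctrl_CE, at 6.13 through 7.25 to 17.6 CPM (log2 0.90, SE 0.22, adjusted p = 0.00976). In eWAT 1 gene was called higher and 1 lower in Ctrl_CE (2.42% of all genes called, 0.979% higher and 1.44% lower) and 0 in MetR_RT (0.115%, 0.0324% higher and 0.0828% lower) and MetR_CE (1.3%, 0.601% higher and 0.695% lower). Against Ctrl_CE, MetR_CE had 2 higher and 1 lower call (4.35%, 2.23% higher and 2.12% lower), against MetR_RT 0 (0.112%, 0.0612% higher and 0.0504% lower), and the interaction was called for 1 gene, Tfrc (2.3%, 1.1% higher and 1.2% lower).

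**Figure D4:**
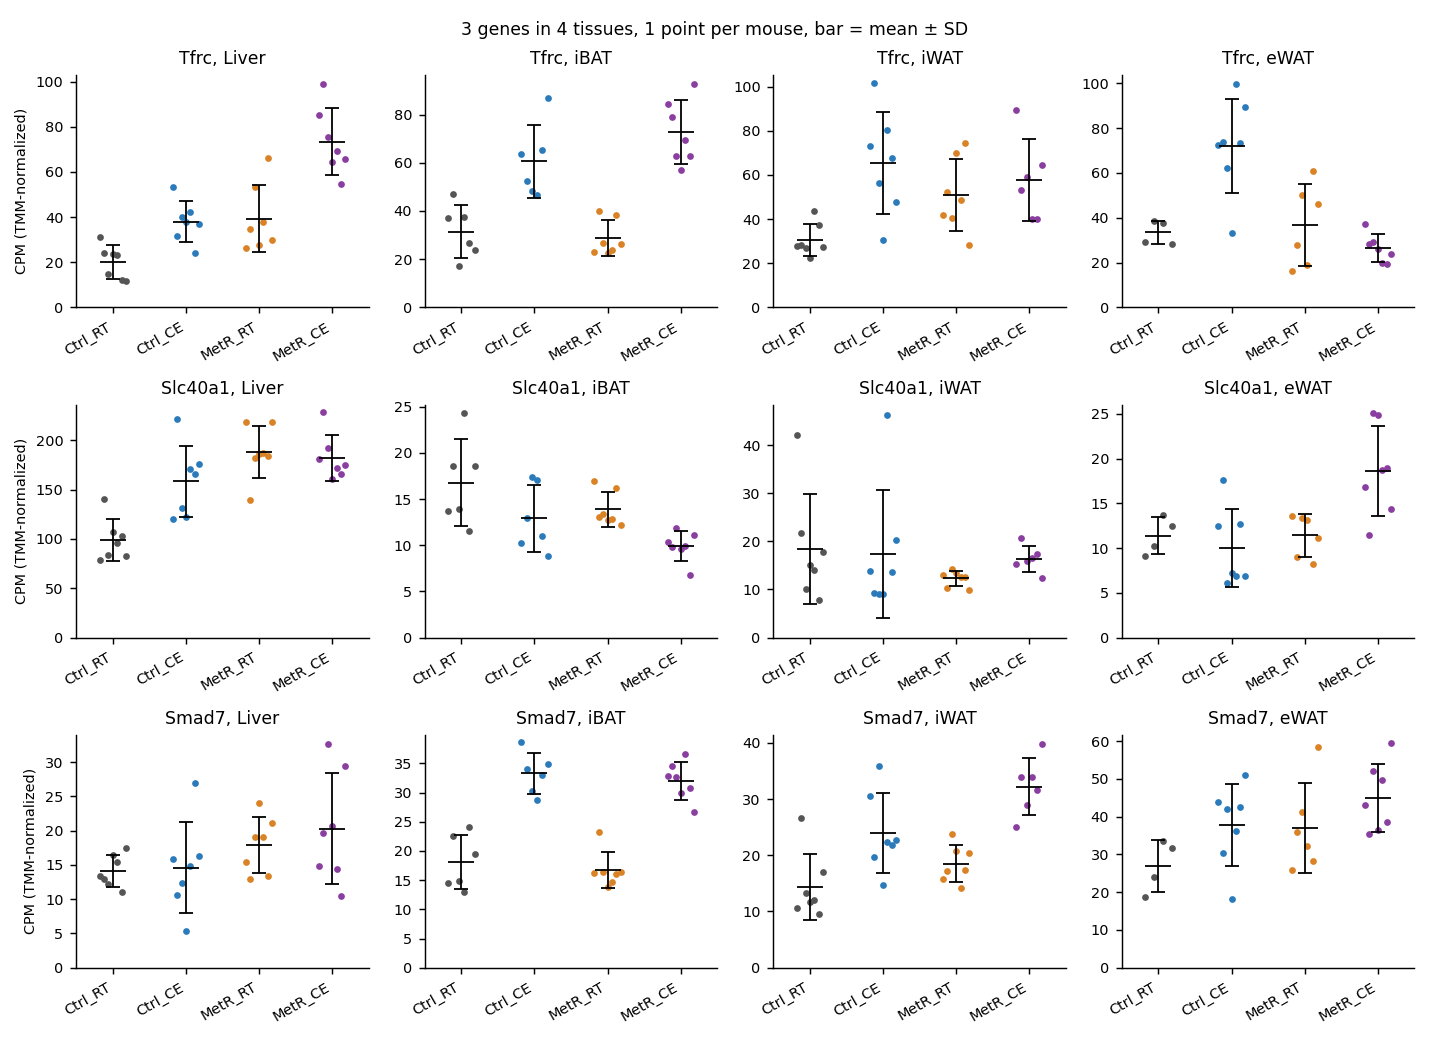
Normalized CPM of Tfrc, Slc40a1 and Smad7 (rows) in liver, iBAT, iWAT and eWAT (columns) by group, each panel with its own axis from 0. Each point is 1 mouse (4 to 7 per group) and the bars give the mean ± SD. Tfrc is higher in Ctrl_CE than in Ctrl_RT in all 4 tissues, and Slc40a1 is higher in the treated groups in liver and lower in MetR_CE in iBAT.

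Responses were compared between tissues in a single fit over all libraries, as the log2 change in liver minus that in a fat depot, for Ctrl_CE and MetR_RT. For Ctrl_CE the Bmp6 response was larger in liver than in iBAT by 1.27, than in iWAT by 1.13 and than in eWAT by 1.65, and the Slc40a1 response was larger in liver than in iBAT by 1.10. All 4 passed, where 9.31%, 11.8% and 6.44% of all genes did for iBAT, iWAT and eWAT. For MetR_RT the Fth1 response was larger in liver by 0.71, 0.84 and 0.95 than in iBAT, iWAT and eWAT. That of Slc40a1 was larger in liver by 1.22 than in iBAT and by 1.53 than in iWAT, those of Bmp6 and Id1 by 1.10 and 1.23 than in iBAT and by 1.01 and 1.26 than in eWAT, and that of Tfrc by 1.13 than in iBAT. Tfr2 was the reverse, with a liver response 1.65 below that in iWAT. All of these passed, where 2.36%, 7.22% and 2.08% of all genes did for iBAT, iWAT and eWAT. With the mouse as a block in limma, the Tfrc difference did not pass (1.13, adjusted p = 0.1105). Between iWAT and eWAT none of the 8 genes other than Hamp passed, where 4.18% of all genes did for Ctrl_CE and 3.52% for MetR_RT.

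**Figure D5:**
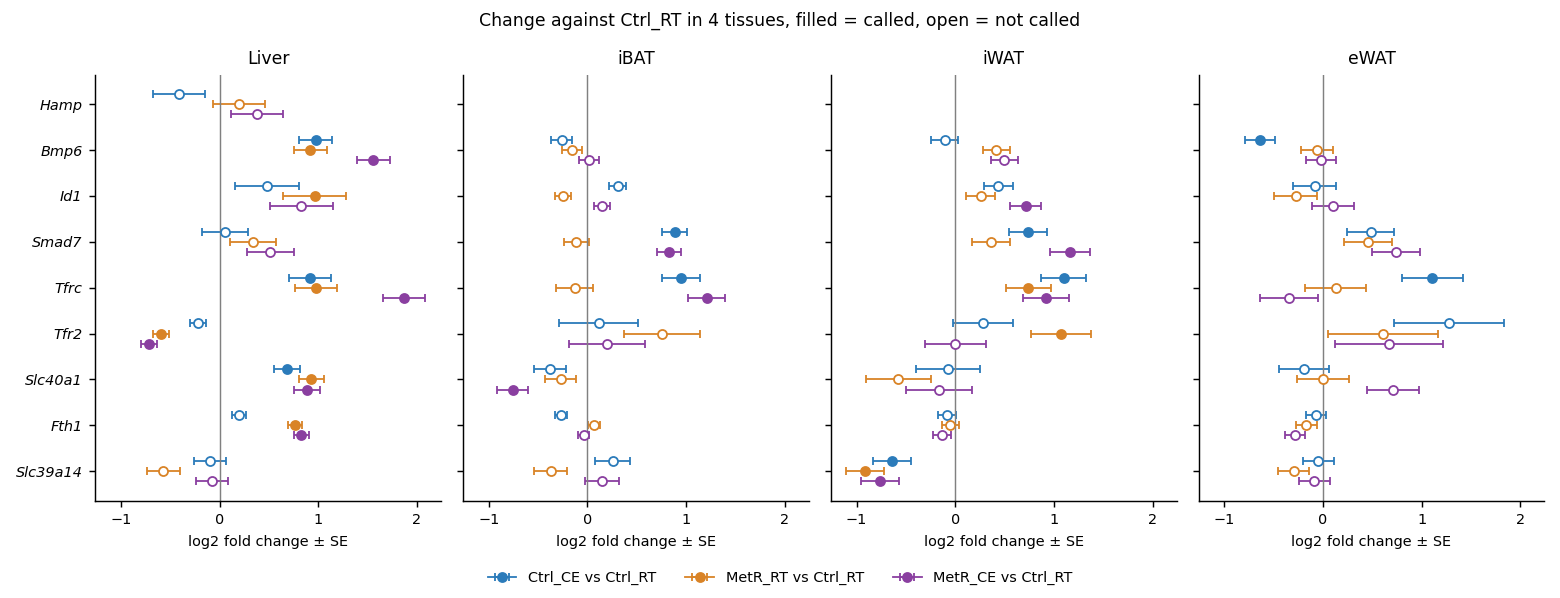
Log2 fold change against Ctrl_RT ± SE of the 9 genes in 4 tissues, for Ctrl_CE (blue), MetR_RT (orange) and MetR_CE (purple), which share the Ctrl_RT mice. Filled points were called and open points were not. Hamp is left out in fat for its low counts. In liver Bmp6, Tfrc, Slc40a1 and Fth1 lie to the right and Tfr2 to the left, whereas in fat Tfrc and Smad7 carry most of the filled points.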

How the data were processed

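RNA was measured by poly(A) RNA-seq of liver, iBAT, iWAT and eWAT. The authors deposited raw counts per gene in 3 tables, and the submitters' processing notes name STAR 2.7.9a, Salmon 1.9.0, featureCounts 2.0.3, DESeq2 1.46.0 and the build mm10. The tables are named for Salmon, whose estimates were summarised to genes and are whole numbers here. Whether strand was used is not given in the sources used here. Symbols and positions came from GENCODE M21 on GRCm38, which matched 51948 of 56884 identifiers once versions were dropped. Each tissue was fitted with edgeR 4.0.16 (R 4.3.3) by the quasi-likelihood test on TMM-normalized counts, with diet, temperature and their interaction, for genes with at least 10 counts over the libraries used. Adjusted p-values are Benjamini-Hochberg over all genes of a contrast. The libraries left out were inferred by matching the mean normalized count of each gene, over the libraries kept of a tissue, to the study's source data. Tissues were compared in a single edgeR fit, which treats tissues of a mouse as independent, or in limma 3.58.1 with the mouse as a block. Permutation tests of correlations were two-sided. Other size factors, filters, samples and blocks were tried, and so was DESeq2 1.42.0, either unshrunken or shrunken by apeglm 1.24.0. The script was tested on simulated data.

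The genes and lists were chosen with earlier results of these data known. Named are the 9 genes, Hamp2, list genes called in liver against Ctrl_RT or in at least 2 of 3 such comparisons in a fat depot, and the 5 genes most and least like Hamp. The list genes given by name are a selection of those called.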

Additional observations from a re-analysis of the deposited data

Results flagged for a closer look

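In 14 of 136 groups of 4 to 7 libraries a single library lay far from the others by Dixon's criterion, which chance alone meets in about 1 in 20 groups. Slc39a14, the ZIP14 importer, accounted for 4 of them. It stood at 572.3 CPM in liver, 39.08 CPM in iWAT and 32.93 CPM in eWAT of Ctrl_CE replicate 4, which is the same mouse in all 3 tissues, and at 492.7 CPM in liver of Ctrl_RT replicate 5. Tfr2 was highest in the liver of that Ctrl_CE mouse too (834.3 CPM), and lowest at 411.1 CPM in liver MetR_RT replicate 3 and at 2.737 CPM in iBAT MetR_CE replicate 4. Id1 reached 35.1 CPM in liver Ctrl_CE replicate 6, 43.85 CPM in iWAT Ctrl_RT replicate 1 and 55.14 CPM in iWAT MetR_RT replicate 1. Slc40a1 reached 42.02 CPM in iWAT Ctrl_RT replicate 1 and 46.27 CPM in iWAT Ctrl_CE replicate 5. In iBAT, MetR_RT replicate 2 held the lowest Bmp6 (29.96 CPM) and the highest Smad7 (23.33 CPM).

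The effect of diet differed between temperatures in 3 of 34 interactions tested: Slc40a1 (-0.727) and Hamp2 (-1.936) in liver and Tfrc in eWAT (-1.582), all on the log2 scale.

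Of 64 differences between tissues tested for the 8 genes other than Hamp, 17 had an adjusted p below 0.05 in edgeR's joint test, given as log2 change in liver minus that in the depot. For Ctrl_CE against Ctrl_RT, Bmp6 differed by 1.271 from iBAT, 1.126 from iWAT and 1.645 from eWAT, Slc40a1 by 1.098 from iBAT, and Fth1 by 0.5028 from iBAT and 0.324 from iWAT. For MetR_RT against Ctrl_RT, the differences from iBAT were 1.104 for Bmp6, 1.234 for Id1, 1.132 for Tfrc, 1.221 for Slc40a1 and 0.713 for Fth1. From iWAT they were -1.651 for Tfr2, 1.529 for Slc40a1 and 0.838 for Fth1, and from eWAT 1.013 for Bmp6, 1.262 for Id1 and 0.9514 for Fth1. The Fth1 values of 0.5028 and 0.324 were under 1.5-fold. With the 1.5-fold line as well, 9.31%, 11.8% and 6.44% of all genes were called for Ctrl_CE between liver and iBAT, iWAT and eWAT. For MetR_RT the shares were 2.36%, 7.22% and 2.08%. Between iWAT and eWAT they were 4.18% for Ctrl_CE and 3.52% for MetR_RT.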

How the results depend on the processing

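No result called in the main run or in an alternative run changed direction between them. Values that were called in neither could change sign, as the pooled correlation of Hamp and Tfrc did (0.162, and -0.0347 without the 2 libraries farthest from the median of Hamp). Of 51 called results of single genes, 50 kept their call without the filter on low counts, 51 with edgeR's own filter, 50 with DESeq2 and 42 with its apeglm shrinkage. With apeglm the calls within a diet or temperature fell from 6 to 3 in liver and from 3 to 1 in iWAT, those against Ctrl_RT in eWAT from 2 to 1, and the iWAT interaction rose from 0 to 1. DESeq2 without shrinkage gave 5 calls against Ctrl_RT and 2 interaction calls in eWAT, and 2 interaction calls in iWAT. Fits with only the groups of a contrast gave 1 call against Ctrl_RT in eWAT, and adjusted p alone gave 6 calls within a diet or temperature in iBAT, rather than 2. Hamp in MetR_CE against Ctrl_CE in liver was 0.78 with DESeq2 size factors (adjusted p = 0.0506) and 0.53 with apeglm (adjusted p = 0.0395, under 1.5-fold). With all deposited libraries the eWAT interaction had 0 calls, and the median log2 change of all genes in eWAT Ctrl_CE shifted by -0.196.

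Leaving out 1 library at a time moved Hamp in MetR_CE against Ctrl_CE between 0.6401 and 0.9102, liver calls within a diet or temperature between 3 and 8 and liver interaction calls between 0 and 2. In iWAT the calls within a diet or temperature ran from 1 to 3 and those of the interaction from 0 to 1, and in eWAT the calls against Ctrl_RT ran from 0 to 3 and those of the interaction from 0 to 2.

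The groups held separate mice, so replicate numbers pair no mice across groups. The median correlation of same-numbered deviations was -0.00537 for liver and -0.00247, 0.052 and 0.0842 for the iBAT, iWAT and eWAT depots. For libraries with other numbers it was 0.00472, -0.0113, 0.000438 and -0.00926. With the number as a replicate block, the calls against Ctrl_RT numbered 15 for liver and 5, 10 and 5 for the iBAT, iWAT and eWAT depots (14, 6, 10 and 2 without it), and Hamp in MetR_CE against Ctrl_CE was 0.86.

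Counting depth limits Hamp in fat, where no fold change is given. Messenger RNA counts do not measure hepcidin, ferritin or ferroportin protein, or iron.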
